A study of Mus musculus with 6 samples.

Results

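The miR-29 family consists of 3 microRNA (miRNA) guide strands, miR-29a-3p, miR-29b-3p and miR-29c-3p, the arms of their hairpins that are loaded into the silencing complex. They were taken by name from a table of 1927 mature miRNA rows, 327 of which were above 0 in any library. All 3 were above 0 in every library and passed the filter on low counts, as 145 rows did. The counts come from small RNA of extracellular vesicles (EVs), membrane-bound particles shed by cells, which were collected from tibias and femurs of untreated male Swiss-CD1 mice aged 8 weeks. Marrow was spun out before the bones were crushed. Small EVs (sEVs) were recovered from the interface of a sucrose cushion after a spin at 100000 g. Large EVs (lEVs) were the washed pellet of the preceding spin at 10000 g. Each fraction had 3 libraries, and no label ties a replicate to its own animal or preparation, so p-values measure the spread between these libraries, which may be technical. Spin and cushion differed together with vesicle size and cannot be told apart. A lower count in a fraction may mean fewer vesicles that carry a miRNA or fewer copies per vesicle, which also cannot be told apart.

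A miRNA finds its messages mainly through its seed, the bases 2 to 8 from its 5′ end. The miR-29 seed matches sites in the 3′ ends of many messages for collagens and other matrix proteins, and the family is best known for restraining matrix production in fibroblasts. In cultured mouse osteoblasts, the matrix-making cells of bone, it is known to rise as they mature and to act on inhibitors of differentiation and on collagen messages. The mature sequences (RefSeq, GRCm38.p6), with the seed in capitals, are shown because the members share the seed and are told apart by few bases.
miR-29a-3p: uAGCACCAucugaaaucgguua
miR-29b-3p: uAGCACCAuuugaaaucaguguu
miR-29c-3p: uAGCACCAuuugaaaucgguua

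All 3 members matched the RefSeq table, and among its 1679 mature mouse miRNA names only these 3 had the seed AGCACCA. With positions counted from the 5′ end, miR-29a-3p and miR-29c-3p differ by 1 base, C10U. miR-29c-3p and miR-29b-3p differ by 3 bases, G18A, U21G and A22U, and miR-29b-3p has 23 bases against 22. Its last 6 bases, AGUGUU, are known in human cells as a signal for import into the nucleus. They stood anywhere in the sequence of 12 of the 1679 names and at the end of 2. How the authors assigned reads that do not cover position 10 or that carry a sequencing error there is not given in the sources used here, so the split between miR-29a-3p and miR-29c-3p is uncertain.

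The family is encoded by 2 pairs of hairpins. Mir29a (chr6:31062660-31062747, minus strand) and Mir29b-1 (chr6:31063023-31063093, minus strand) lie 275 bases apart on chromosome 6. Mir29b-2 (chr1:195037040-195037120, plus strand) and Mir29c (chr1:195037547-195037634, plus strand) lie 426 bases apart on chromosome 1, all in GRCm38. In the GENCODE M21 annotation Mir29a overlaps no other gene. Mir29b-1 overlaps an exon of the noncoding gene Gm27019 without lying wholly within it. Mir29b-2 and Mir29c lie within exons of the noncoding host gene A330023F24Rik and, on the opposite strand, within exons of Cd46, a complement regulator. The mature miR-29b-3p of both loci is identical, so its counts add up the 2 hairpins.

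Messages were not sequenced, so the label of collagen regulators can be set only beside the reference sequence. The 3′ UTR of 16 of 44 collagen genes (36.4%) held TGGTGCTA, the complement of the seed followed by A, against 572 of 20491 protein-coding genes (2.79%). The median 3′ UTR had 1032.5 bases in the collagen genes and 953 in all genes, and the site occurred 29.9 times per 100 kb in collagen genes and 1.99 times in all. Only the sense strand was searched. The collagen genes with a site included those of the main bone collagen chain, Col1a1, and of fibrillar Col3a1 and Col5a1, with 1, 1 and 2 sites. Col1a2, which encodes the partner chain of Col1a1, had 0 in this window. Of 21 other messages listed as miR-29 targets, 7 held the site (33.3%), among them elastin, Eln, with 2. A match of letters describes the reference and is no measurement of silencing. The sites below, in GRCm38 with the match of the seed and the A after it in capitals, are shown as examples from messages for matrix proteins.
Col1a1, chr11:94952524-94952545, plus strand: tgggaaggaatttcTGGTGCTA
Col3a1, chr1:45348968-45348989, plus strand: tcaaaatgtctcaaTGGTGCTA
Eln, first site, chr5:134703736-134703757, minus strand: gacctcatcaacgtTGGTGCTA

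Library totals were 75486 to 114331 counts in sEVs and 47441 to 92502 in lEVs. lEVs replicate 1 was the shallowest library and stood apart from the other lEVs libraries. The common biological coefficient of variation was 0.177 with it and 0.0832 without it. No bone-specific miRNA was among the markers used, so the tissue label was not checked by one. Mesenchymal markers (miR-199a, miR-214, miR-143, miR-145a and miR-125b) took 19.6% to 20.6% of the sEVs counts and 13.8% to 16.4% of the lEVs counts. The rows of this set did not move together. By the edgeR test used below, 2 of the 6 rows, miR-125b-5p and miR-143-3p, were higher in sEVs and the other rows did not pass. Of all 145 tested miRNAs, 8.28% were higher and 8.97% lower. DESeq2 called 3 of these rows higher and 0 lower, against 6.72% and 5.04% of all it tested. In limma voom 2 were higher and 1 lower, against 10.3% and 9.66% of all tested. The most abundant row, miR-199a-3p/199b-3p, had a log2 fold change of sEVs over lEVs of 0.11 (edgeR adjusted p = 0.602). Those of miR-145a-5p and miR-214-3p were below 0. Liver miR-122-5p was 0 in all libraries, and neural miR-124-3p and miR-9-5p took at most 0.00503% in sEVs and 0.00462% in lEVs.

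miR-29a-3p, the most abundant member, was lower in small than in large vesicles. Its counts in replicates 1, 2 and 3 were 347, 533 and 678 for sEVs, against 576, 1062 and 1018 for lEVs. Expressed in CPM, with each library brought to a common total and corrected by TMM factors for differences in composition, these were 4789, 5635 and 6087 CPM in sEVs and 14232, 9750 and 10514 CPM in lEVs. The groups did not overlap, and lEVs replicate 1 was the highest library. The sEVs libraries averaged 5503 ± 659 CPM, against 11499 ± 2398 CPM for the lEVs libraries (SD, n = 3 each). The log2 fold change of sEVs over lEVs was -1.06 (SE 0.18, 95% interval -1.47 to -0.64; adjusted p = 0.00447 by edgeR's quasi-likelihood test, Benjamini-Hochberg over 145 miRNAs). This puts miR-29a-3p 2.08-fold higher in lEVs. Without lEVs replicate 1 the log2 fold change was -0.88 (edgeR adjusted p = 1.42e-05), so the call did not rest on that library.

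miR-29b-3p was the rarest member and its difference missed the threshold. Its counts in replicates 1, 2 and 3 were 12, 37 and 50 for sEVs, against 27, 61 and 72 for lEVs. Its levels were 166, 391 and 449 CPM in sEVs and 667, 560 and 744 CPM in lEVs. Every sEVs library lay below every lEVs library, and sEVs replicate 1 was the lowest. The sEVs mean was 335 ± 150 CPM, against a lEVs mean of 657 ± 92.2 CPM (SD, n = 3 each). The log2 fold change of -0.92 was close to that of miR-29a-3p but less precise (SE 0.32, 95% interval -1.66 to -0.18 with no adjustment; edgeR adjusted p = 0.0783). It passed without lEVs replicate 1 (log2 fold change -0.90; edgeR adjusted p = 0.0127) and when scaled by library totals (-1.06; 0.0441). Without sEVs replicate 1 the value was -0.60 (edgeR adjusted p = 0.0881), and DESeq2 on all libraries gave -0.93 (DESeq2 adjusted p = 0.216).

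miR-29c-3p showed no detectable difference over all libraries. Its counts in replicates 1, 2 and 3 were 53, 59 and 129 for sEVs, against 42, 115 and 102 for lEVs. Its levels were 731, 624 and 1158 CPM in sEVs and 1038, 1056 and 1053 CPM in lEVs. The groups overlapped, since sEVs replicate 3 lay above all 3 lEVs libraries while the other sEVs libraries lay below them. The sEVs mean was 838 ± 283 CPM, against a lEVs mean of 1049 ± 9.82 CPM (SD, n = 3 each). The log2 fold change was -0.31 (SE 0.24, 95% interval -0.86 to 0.24; edgeR adjusted p = 0.361). Leaving out sEVs replicate 3 gave -0.69 (edgeR adjusted p = 0.0372), so the side of the threshold depended on that library.

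**Figure D1:**
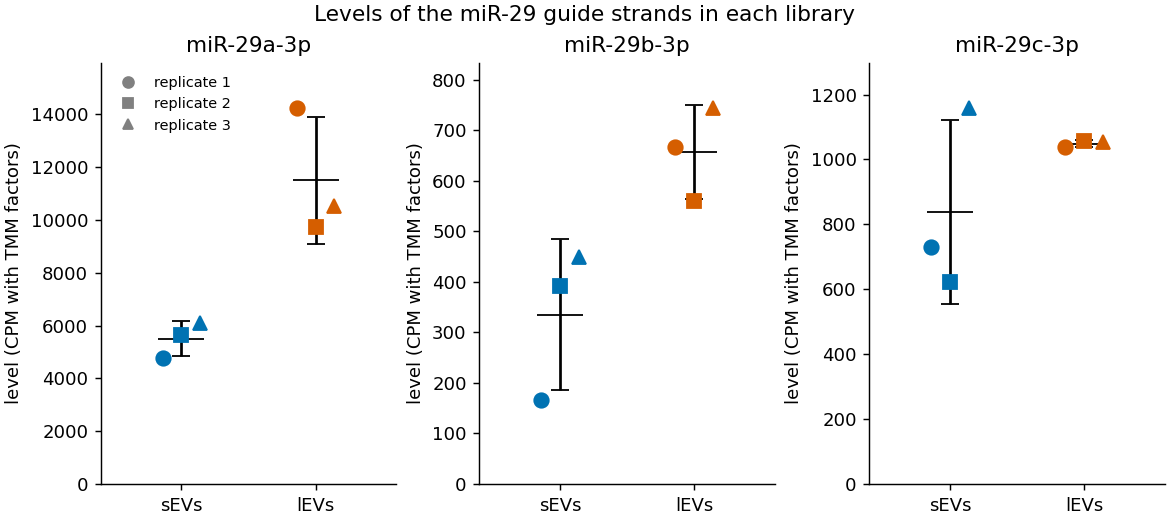
Level of each miR-29 guide strand in CPM with TMM factors (vertical axis, from 0) in the 3 sEVs and 3 lEVs libraries; symbols are replicates, horizontal bars means and error bars SD. The sEVs libraries lie below the lEVs libraries for miR-29a-3p and miR-29b-3p, and for miR-29c-3p sEVs replicate 3, at 1158 CPM, lies above the lEVs libraries.

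By edgeR, 1 of the 3 members fell in sEVs and 2 did not pass, in a table where 8.97% of the 145 tested miRNAs were lower and 8.28% higher in sEVs (17.2% called in either direction). Of the 3, miR-29a-3p and miR-29b-3p had their 3 sEVs levels below the 3 lEVs levels, as did 22.1% of the tested miRNAs. All 3 log2 fold changes were below 0, as were those of 76 of the 145, whose median was -0.04. All 3 also stayed below 0 under each of the 15 other settings and left-out libraries that were run.

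**Figure D2:**
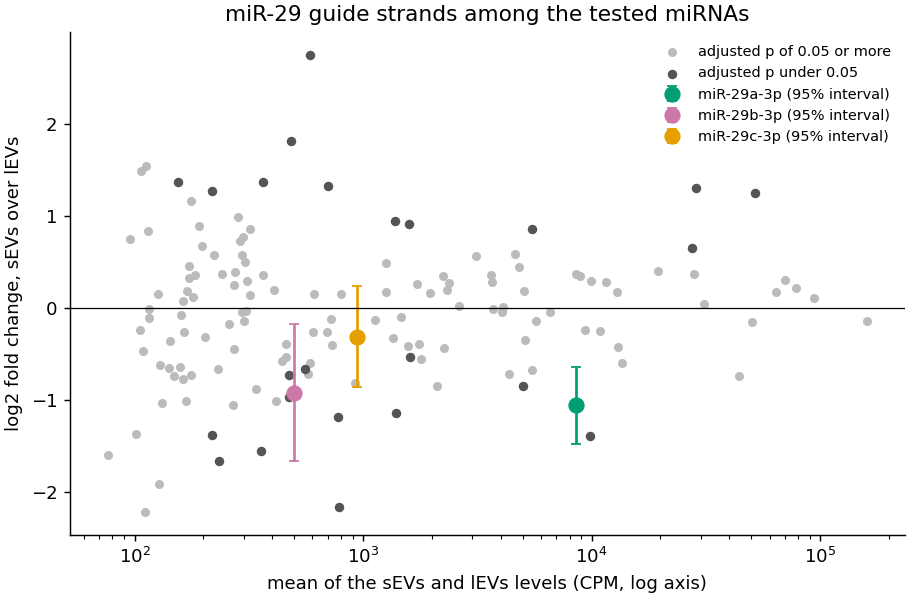
Log2 fold change of sEVs over lEVs (vertical axis) against the mean of the sEVs and lEVs levels in CPM (log axis) for the 145 tested miRNAs, dark where the edgeR adjusted p was under 0.05. The coloured points with 95% intervals, which carry no adjustment, are miR-29a-3p at -1.06, miR-29b-3p at -0.92 and miR-29c-3p at -0.31. The interval of miR-29c-3p alone crosses 0, but of the members only miR-29a-3p had an adjusted p under 0.05.

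Added up, the family took shares of 0.546%, 0.633% and 0.750% in sEVs replicates 1, 2 and 3 (exact 95% binomial intervals 0.494 to 0.601%, 0.585 to 0.685% and 0.700 to 0.801%). In lEVs replicates 1, 2 and 3 it took 1.36%, 1.34% and 1.38% (1.26 to 1.47%, 1.27 to 1.41% and 1.30 to 1.46%). As shares of raw library totals, the lEVs values were within counting error of each other. The lowest and highest sEVs shares had intervals that did not overlap. The mean share of raw totals was 0.643% ± 0.102 for sEVs, against 1.36% ± 0.0188 for lEVs (SD, n = 3 each), which is 2.11-fold higher in lEVs. With TMM factors, as used for the members, the sum averaged 6676 ± 1004 CPM for sEVs, against 13205 ± 2413 CPM for lEVs. That is 1.98-fold higher in lEVs. On that scale lEVs replicates 1, 2 and 3 had 15937, 11366 and 12311 CPM, so their closeness held for raw totals only. Intervals cover counting error only. miR-29a-3p made up most of each sum, so the sum is not separate support beside it.

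Levels of different miRNAs in such libraries also reflect how well each is captured, so their order is one of counts. miR-29a-3p ranked 26th of the 145 by mean level in sEVs and 19th in lEVs. miR-29c-3p ranked 63rd and 62nd, and miR-29b-3p 90th and 73rd. Over both fractions the order ran from miR-29a-3p in lEVs and sEVs, through miR-29c-3p in lEVs and sEVs, to miR-29b-3p in lEVs and sEVs. The levels of miR-29c-3p in the 2 fractions overlapped, as did those of miR-29c-3p in sEVs and miR-29b-3p in lEVs. In sEVs the neighbours of miR-29a-3p in the order were miR-199a-5p (5506 ± 205 CPM) and let-7e-5p/7k (5487 ± 639 CPM), and in lEVs miR-142a-3p (11785 ± 930 CPM) and miR-21a-5p (10361 ± 2909 CPM; SD, n = 3 each). None of these was separated from miR-29a-3p by more than the spread.

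The make-up of the family was compared within libraries, where scaling plays no part. Of the family's counts, miR-29a-3p made up 82.7% ± 3.11 for sEVs, against 86.8% ± 2.15 for lEVs (SD, n = 3 each). The share of miR-29c-3p was 12.4% ± 2.86 for sEVs, against 8.12% ± 1.44 for lEVs, and that of miR-29b-3p 4.88% ± 1.70 for sEVs, against 5.05% ± 0.933 for lEVs. Counts of miR-29a-3p were 6.55, 9.03 and 5.26 times those of miR-29c-3p in sEVs replicates 1, 2 and 3, and 13.7, 9.23 and 9.98 times in those of lEVs. The groups did not overlap, but sEVs replicate 2 and lEVs replicate 2 lay close together. The mean log2 ratio was 2.75 ± 0.39 in sEVs and 3.43 ± 0.30 in lEVs, a difference of -0.67 (exact two-sided permutation p = 0.1, the smallest that 3 against 3 libraries allow; 0.3 adjusted over the 3 ratios).

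The ratio of miR-29a-3p to miR-29b-3p, whose hairpins pair on chromosome 6, had nearly the same mean in both fractions, with a wide spread. Its log2 value was 4.13 ± 0.58 in sEVs and 4.10 ± 0.29 in lEVs, a difference of 0.02 (exact two-sided permutation p = 0.9; adjusted 0.9). That of miR-29c-3p to miR-29b-3p, which pair on chromosome 1, was 1.37 ± 0.72 in sEVs and 0.68 ± 0.21 in lEVs, a difference of 0.70 (SDs over 3 libraries; exact permutation p = 0.2, two-sided; adjusted 0.3). None of the 3 ratios could pass in this design, so an unequal change of the members was not shown.

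**Figure D3:**
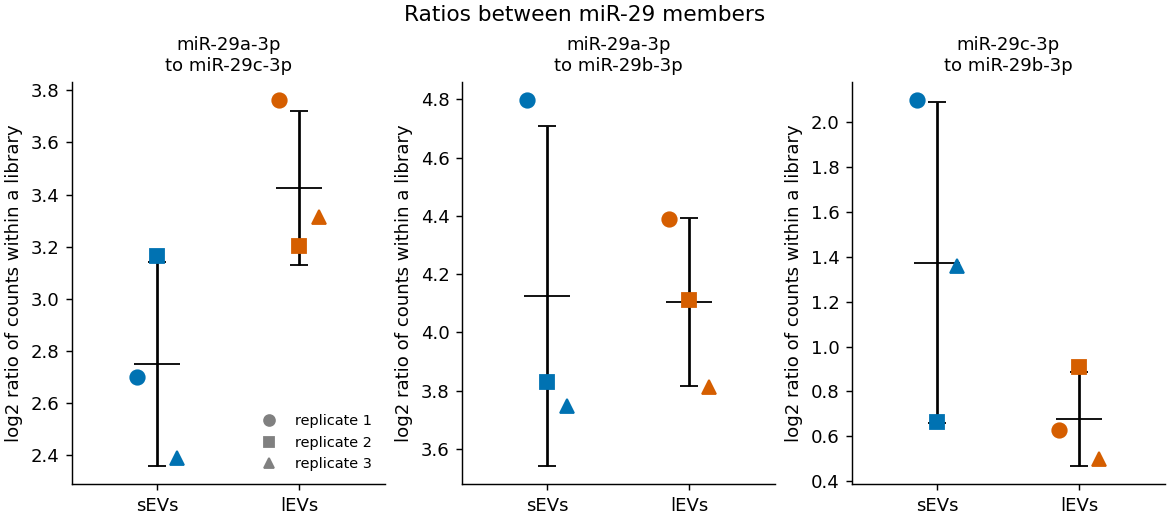
Log2 ratio of the counts of 2 members within a library (vertical axis, 0.5 added to each count; axes do not start at 0) in the 3 sEVs and 3 lEVs libraries, with mean and SD. For miR-29a-3p to miR-29c-3p the sEVs mean of 2.75 lies below the lEVs mean of 3.43 and the groups do not overlap; in the other 2 panels they overlap.

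The passenger arms of the same hairpins, which are usually degraded once the guide is loaded, were close to absent. miR-29b-1-5p had 3 counts and miR-29c-5p had 2, both in sEVs replicate 3, and miR-29a-5p and miR-29b-2-5p had 0 in every library. Together these 4 arms had 5 counts against 4973 of the 3 guides. The table holds no value of 1, so a listed 0 may stand for more than none, and no limit was set from it.

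The miRNAs with the most similar pattern were found by the root mean square difference of log2 CPM over the 6 libraries after centring each on its mean. For miR-29a-3p they were miR-128-3p, miR-574-5p and miR-378a-3p/378b/378c, a row of joined names, at 0.17, 0.19 and 0.19, and miR-29b-3p and miR-29c-3p stood at places 18 and 38. For miR-29b-3p they were miR-30b-5p, miR-148b-3p and miR-361-3p (0.28, 0.32 and 0.34), and for miR-29c-3p miR-322-5p, miR-142a-3p and miR-221-3p (0.17, 0.24 and 0.24). From miR-29b-3p, miR-29a-3p stood at place 5, at 0.36, and miR-29c-3p at place 22. From miR-29c-3p, miR-29a-3p and miR-29b-3p stood at places 51 and 81. The 3 nearest patterns to each member lay outside the family.

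Of 16 tested rows of other miRNAs known in fibrosis or matrix regulation, 1 rose in sEVs, 0 fell and 15 did not pass in edgeR, where 8.28% of all tested miRNAs were higher and 8.97% lower, so the count was near the background. At an unadjusted p under 0.05 in edgeR, 5 were higher and 2 lower in sEVs. DESeq2, counted over the 19 rows found for the list and not only those tested by edgeR, called 3 higher and 0 lower. How many of the 19 had an adjusted p in DESeq2 was not counted, so no share is given. In limma voom 2 were higher and 1 lower. Over all tested miRNAs the shares higher and lower were 19.3% and 18.6% at an unadjusted p, 6.72% and 5.04% of the 238 with an adjusted p in DESeq2, and 10.3% and 9.66% in limma voom. The median log2 fold change of the 16 was 0.22, against -0.04 over all tested. miR-143-3p, a miRNA of smooth muscle and other mesenchymal cells, rose to 33575 ± 3729 CPM in the sEVs libraries, against 21305 ± 3285 CPM in the lEVs libraries (SD, n = 3 each; edgeR adjusted p = 0.0231, log2 fold change 0.65). The pro-fibrotic miR-21a-5p averaged 12681 ± 1761 CPM for sEVs, against 10361 ± 2909 CPM for lEVs (SD, n = 3 each; edgeR adjusted p = 0.367, log2 fold change 0.29). miR-26a-5p stood at 0.41 and miR-199a-5p at 0.45 on the same log2 scale (edgeR adjusted p = 0.0537 and 0.0669). The fitted ratios of lEVs over sEVs were 1.80 for miR-133a-3p/133b-3p and 2.01 for miR-145a-5p (edgeR adjusted p = 0.0555 and 0.0592); these 2 were chosen for mention after their values were seen. Without lEVs replicate 1, 4 of 16 rose (miR-143-3p, miR-199a-5p, miR-203-3p and miR-26a-5p) and 3 fell (miR-133a-3p/133b-3p, miR-145a-5p and miR-19b-3p). Of the 151 miRNAs then tested, 19.2% were higher and 15.2% lower in sEVs.

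Of 19 tested miRNAs known in osteoblast or osteoclast differentiation, 3 rose in sEVs, 0 fell and 16 did not pass in edgeR, with a median log2 fold change of 0.29, against -0.04 over all tested. The background was the 8.28% higher and 8.97% lower of all tested miRNAs. At an unadjusted p under 0.05 in edgeR, 5 were higher and 1 lower in sEVs, against 19.3% and 18.6% of all tested. DESeq2, counted over the 28 rows found for the list and not only those tested by edgeR, called 4 higher and 0 lower. How many of the 28 had an adjusted p in DESeq2 was not counted, so no share is given. In limma voom 5 were higher and 0 lower. The shares higher and lower of all tested were 6.72% and 5.04% in DESeq2, and 10.3% and 9.66% in limma voom. The list does not include miR-29, and 3 of its rows, miR-26a-5p, miR-21a-5p and miR-214-3p, stand in the fibrosis list as well. The 3 that rose, of which the last 2 are named because they were called, were miR-125b-5p, which restrains osteoblast differentiation in mouse cells, miR-23a-3p/23b-3p and miR-22-3p. miR-125b-5p averaged 72760 ± 4967 CPM for sEVs, against 30716 ± 697 CPM for lEVs (SD, n = 3 each; edgeR adjusted p = 0.000534, log2 fold change 1.24). On the log2 scale miR-23a-3p/23b-3p changed by 0.86 and miR-22-3p by 1.32 (edgeR adjusted p = 0.00263 and 0.00268). miR-223-3p, a miRNA of granulocytes and osteoclast precursors, averaged 31631 ± 1110 CPM for sEVs, against 30676 ± 423 CPM for lEVs (SD, n = 3 each; edgeR adjusted p = 0.783, log2 fold change 0.04). Without lEVs replicate 1, 6 of 20 rose and 1, miR-30b-5p, fell, beside the 19.2% higher and 15.2% lower of all 151.

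Among markers of other cell types, those of cartilage took lower shares of raw library totals in sEVs, as miR-29a-3p did. miR-140-3p, miR-140-5p and miR-455-3p together took between 1.11% and 1.19% of an sEVs library and between 1.42% and 2.04% of an lEVs library. Both arms of miR-140 had fold changes below 0 on the log2 scale, miR-455-3p above 0, and edgeR adjusted p ran from 0.119 to 0.253. The most abundant row, miR-140-3p, had 11771, 10741 and 10935 CPM in sEVs replicates 1, 2 and 3, against 22015, 11265 and 11743 CPM in those of lEVs. These levels, with TMM factors, overlapped, unlike those of miR-29a-3p, and the gap between the means rested on lEVs replicate 1. Skeletal muscle markers took between 1.67% and 2.00% of an sEVs library and between 1.78% and 2.58% of an lEVs library, with edgeR adjusted p from 0.0555 to 0.513 for the 3 rows. Endothelial markers (miR-126a) went the other way, with 8.24% to 8.60% of an sEVs library and 6.52% to 7.80% of an lEVs library. Myeloid markers took 4.34% to 4.80% in sEVs and 4.08% to 5.60% in lEVs, and erythroid markers 0.428% to 0.558% in sEVs and 0.525% to 0.740% in lEVs. No row of these 5 sets passed in edgeR. At an unadjusted p under 0.05 in edgeR, 2 endothelial rows and 1 cartilage row were higher and 1 cartilage row and 1 muscle row lower in sEVs. DESeq2 called 1 endothelial row higher, and limma voom called 0. Over all tested miRNAs, 19.3% were higher and 18.6% lower in sEVs at an unadjusted p in edgeR. Those shares were 6.72% and 5.04% in DESeq2, and 10.3% and 9.66% in limma voom. The part of these cells in the lower miR-29a-3p of sEVs was not tested.

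**Figure D4:**
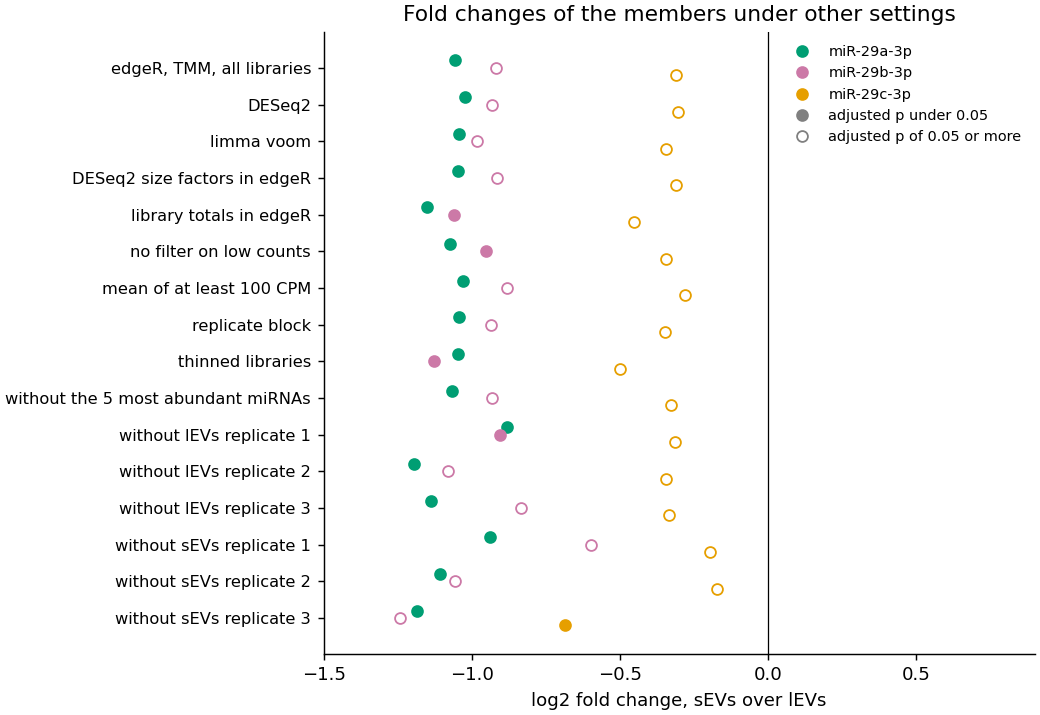
Log2 fold change of sEVs over lEVs (horizontal axis) of the 3 members under each test, scaling, filter and left-out library (rows); filled points have an adjusted p under 0.05. miR-29a-3p is filled in every row, miR-29b-3p in 4 rows and miR-29c-3p only without sEVs replicate 3.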

How the data were processed

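The table the authors deposited holds raw counts, whole numbers for each mature miRNA in each library. Per the labels' protocols, miRNeasy RNA was turned into QIAseq miRNA libraries and read on a MiSeq in single reads of 75 bases. Per the submitters' processing notes, tools included R 4.2.2 and DESeq2 1.38.2, with GRCm38 as the build. The aligner, the treatment of strand and of near-identical miRNAs, and any use of molecular identifiers remain not given in the sources used here.

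Columns and groups were matched through the labels. The main test was edgeR 4.0.16 under R 4.3.3, by quasi-likelihood with TMM. Rows had to pass filterByExpr (minimum count 10, minimum total 15), and Benjamini-Hochberg adjusted p-values over all tested rows were called at 0.05. The code was tested on simulated data. Standard errors are the absolute log2 fold change over the root of F. Ratios between members were tested with exact permutations in scipy 1.17.1. Alternatives used DESeq2 1.42.0, voom of limma 3.58.1, other scalings and filters, libraries thinned to 47441 counts, a replicate block, and each library left out. The 3 members, the lists and the tests were chosen with earlier results of these data known. Named miRNAs were the members, their other arms, neighbours in rank, the 3 nearest patterns and up to 4 of the most abundant of each list. Any further miRNA named from a list was called or chosen after its values were seen. Seed matches were searched in the longest 3′ UTR of each protein-coding gene of GENCODE M21, chromosome 18 left out.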

Additional observations from a re-analysis of the deposited data

How the results depend on the processing

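miR-29a-3p kept its direction and its call under all 15 alternatives, with log2 fold changes of sEVs over lEVs from -1.20 without lEVs replicate 2 to -0.88 without lEVs replicate 1, and edgeR or DESeq2 adjusted p from 5.91e-08 to 0.0390. For miR-29b-3p, a call appeared with library totals (log2 fold change -1.06; edgeR adjusted p = 0.0441), without the filter on low counts (-0.95; 0.00403), after thinning (-1.13; 0.0403) and without lEVs replicate 1 (-0.90; 0.0127); leaving out single libraries gave -1.24 to -0.60. In the other settings miR-29b-3p did not pass. It was furthest from the threshold in DESeq2 (log2 fold change -0.93, DESeq2 adjusted p = 0.216). Without lEVs replicate 3 or sEVs replicate 2 it had -0.84 and -1.06 (edgeR adjusted p = 0.201 and 0.125). For miR-29c-3p, left-out libraries gave -0.69 to -0.17. Over all miRNAs, 25 calls became 53 without the filter and 16 (without lEVs replicate 3) to 52 (without lEVs replicate 1) with a library left out. Scaling by library totals gave a median log2 fold change of -0.18, against -0.04 with TMM, and 11 calls higher and 24 lower in sEVs, against 12 and 13.

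Leaving out single libraries gave differences in log2 ratio of -0.88 to -0.49 for miR-29a-3p to miR-29c-3p and of 0.33 to 1.05 for miR-29c-3p to miR-29b-3p. For miR-29a-3p to miR-29b-3p they ran from -0.32 to 0.21 and changed sign without sEVs replicate 1 (-0.32) or lEVs replicate 3 (-0.13). The cause was not tested. Whether same-numbered libraries share a preparation could not be decided from 3 libraries per fraction. Across miRNAs, deviations of same-numbered libraries correlated at -0.04, 0.02 and 0.35 for replicates 1, 2 and 3. The value for replicate 3 was the highest over all pairs of an sEVs and an lEVs library. The lowest was -0.30, for sEVs replicate 2 and lEVs replicate 3. With the replicate block, 26 miRNAs were called and the members had -1.04, -0.94 and -0.35 (edgeR adjusted p = 0.00987, 0.0675 and 0.247). List calls without lEVs replicate 1, an alternative chosen after seeing the data, went from 1 to 7 for fibrosis and matrix and from 3 to 7 for osteoblast and osteoclast miRNAs. Depth limits miR-29b-3p most, whose 12 counts in sEVs replicate 1 give a share of 0.0159% (exact 95% binomial interval 0.00821 to 0.0278%).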
